A study of Arabidopsis thaliana with 12 samples.

Results

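The genes described here lie around AT3G16910 on chromosome 3 of Arabidopsis thaliana, the locus that carries the T-DNA insertion of the line ACN1-2. They were chosen by locus name, from AT3G15700 to AT3G17500 inclusive, and by having a probe set that the platform annotation assigns to exactly 1 gene. The rule was set with earlier results of these data known. This rule gave 97 probe sets for 97 genes, out of 13286 genes with such a probe set and 22810 probe sets in the table. The RefSeq annotation used for names and gene order lists 195 protein-coding genes in the window, 131 on the left of AT3G16910 (lower locus numbers) and 63 on the right (higher locus numbers). Of the 97 measured neighbours, 62 lay on the left and 35 on the right. Measured here means having a probe set assigned to exactly 1 gene. Other genes may be read by the 503 probe sets naming several genes or the 8730 naming none, which were not searched. No probe set (0) carried the name AT3G16910 in that annotation, so the expression of the inserted gene itself was not analysed here, and neither the presence of the insertion nor the loss of its transcript was checked. The deposited files and labels name no genome build. Positions are counted in protein-coding genes, in the order of the RefSeq annotation, and no coordinates are printed.

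The 4 groups held 3 Affymetrix ATH1 arrays each, of RNA from whole seedlings. They were ACN1-2 grown with 100 mM sucrose, ACN1-2 untreated, col-7 with 100 mM sucrose and col-7 untreated. Both lines share the col-7 ecotype. ACN1-2 is described by its labels as carrying a T-DNA in At3g16910, and the labels name no other allele, no backcross and no sister line, so the line contrast rests on 1 insertion line. All seedlings grew on agar at 20 °C in continual light to growth stage 0.70, after 4 days of stratification at 4 °C. Seedlings were collected as 3 pools of 1000, per the labels, which leave unsaid whether a group's replicates were grown as separate cultures, so a p-value here measures only how these samples vary, and that variation may be technical.

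AT3G16910 encodes ACN1, a peroxisomal enzyme that activates acetate to acetyl-CoA, which can then enter the glyoxylate cycle. In a T-DNA line the inserted DNA can alter the transcription of genes close to it, and a stretch of chromosome around the insertion is inherited together with it, so neighbouring genes are a usual point to inspect when such a line is compared with its parent. Sucrose is both a carbon source and a signal for seedlings, and it is known to repress many photosynthetic genes and to raise many genes of protein synthesis.

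Values are intensities on a linear scale that the authors had brought to a common trimmed mean of about 100.0 per array, and array medians ran from 41 to 47.2. Intensities under 14.4 were raised to that floor before taking log2, and a probe set was tested when its mean over the 12 arrays reached 29.1. Of the 97 neighbours, 59 were tested, with means of 30.1 to 2120 over the 12 arrays. The other 38 were too dim, with means of 0.792 to 27.1. Of these 38, 21 had every array at or under the floor. Differences are log2 values from limma fitted on all 13764 tested probe sets, with p-values adjusted over all of them, and an adjusted p under 0.05 is a call. Replicate 3 of untreated ACN1-2 and replicate 3 of col-7 with sucrose had the largest deviations, of SD 0.245 and 0.203 on the log2 scale. The other 10 arrays had 0.116 to 0.190, so the second of these arrays was close to the next. Both are called arrays that stood apart below. The measured green tissue markers RCA and PRK (2 of 5 listed) and root markers EXPA7 and EXPA18 (2 of 5 listed) were well above the floor in all groups. In whole seedlings, fewer cells of a type and less RNA per cell cannot be told apart.

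The line difference was small across the tested neighbours inside the window. AT3G15670 and AT3G17520, just outside its edges, were calls in both media and are described below. Without sucrose, 0 of the 59 tested neighbours differed between ACN1-2 and col-7 by limma, against 0.545% of all tested probe sets. With sucrose the count was again 0 of 59, against 0.211%. Both counts of 0 are near these shares and do not set the neighbours apart from the whole array. They also depend on where the edges were put, since AT3G15670 and AT3G17520 lie just beyond them. At an unadjusted p under 0.05 there were 10 neighbours without sucrose (14.4% of all tested probe sets had such a p) and 3 with sucrose (4.78%). The ACN1-2 minus col-7 differences ran from -0.48 to 0.57 without sucrose, with a median of 0.01 beside 0.03 over all tested probe sets. With sucrose they ran from -0.33 to 0.40, with a median of 0.03 beside 0.00. The 95% interval of the difference lay within 2-fold either way for 58 of 59 neighbours without sucrose and for 59 of 59 with it. The exception was AT3G16670, whose interval without sucrose reached 1.09. AT3G16220 read under the floor on every sucrose array, so its difference and interval with sucrose were set by the floor. Among the alternatives its difference with sucrose reached 1.05. A p-value that misses the threshold does not show that levels were equal. The median standard error was 0.13, and differences several times that size, -0.48 and 0.57 without sucrose and 0.40 with it, were not calls.

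Set against position, the line difference showed no slope toward the insertion locus. Without sucrose the median absolute difference was 0.17 over the 14 tested neighbours within 20 genes of AT3G16910, 0.16 over all 59 and 0.14 over all tested probe sets. With sucrose the same medians were 0.09, 0.08 and 0.09. By stretches of the chromosome, the median absolute difference without sucrose was 0.20 from 131 to 101 genes on the left (12 tested), 0.12 from 100 to 61 genes (15 tested) and 0.10 from 60 to 21 genes (10 tested). Closer in, it was 0.17 in the last 20 genes on the left (6 tested) and 0.17 in the first 20 genes on the right (8 tested), and it was 0.13 in the remaining 8 on the right. With sucrose the same 6 stretches gave 0.06, 0.12, 0.12, 0.10, 0.09 and 0.05 in that order. Spearman's rho between the absolute difference and the distance in genes was 0.142 without and -0.0138 with sucrose over 59 genes, given as a description, since all points share the same arrays. The median difference was 0.02 on the left (43 tested) and -0.04 on the right (16 tested) without sucrose, and 0.03 and 0.04 with it.

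**Figure D1:**
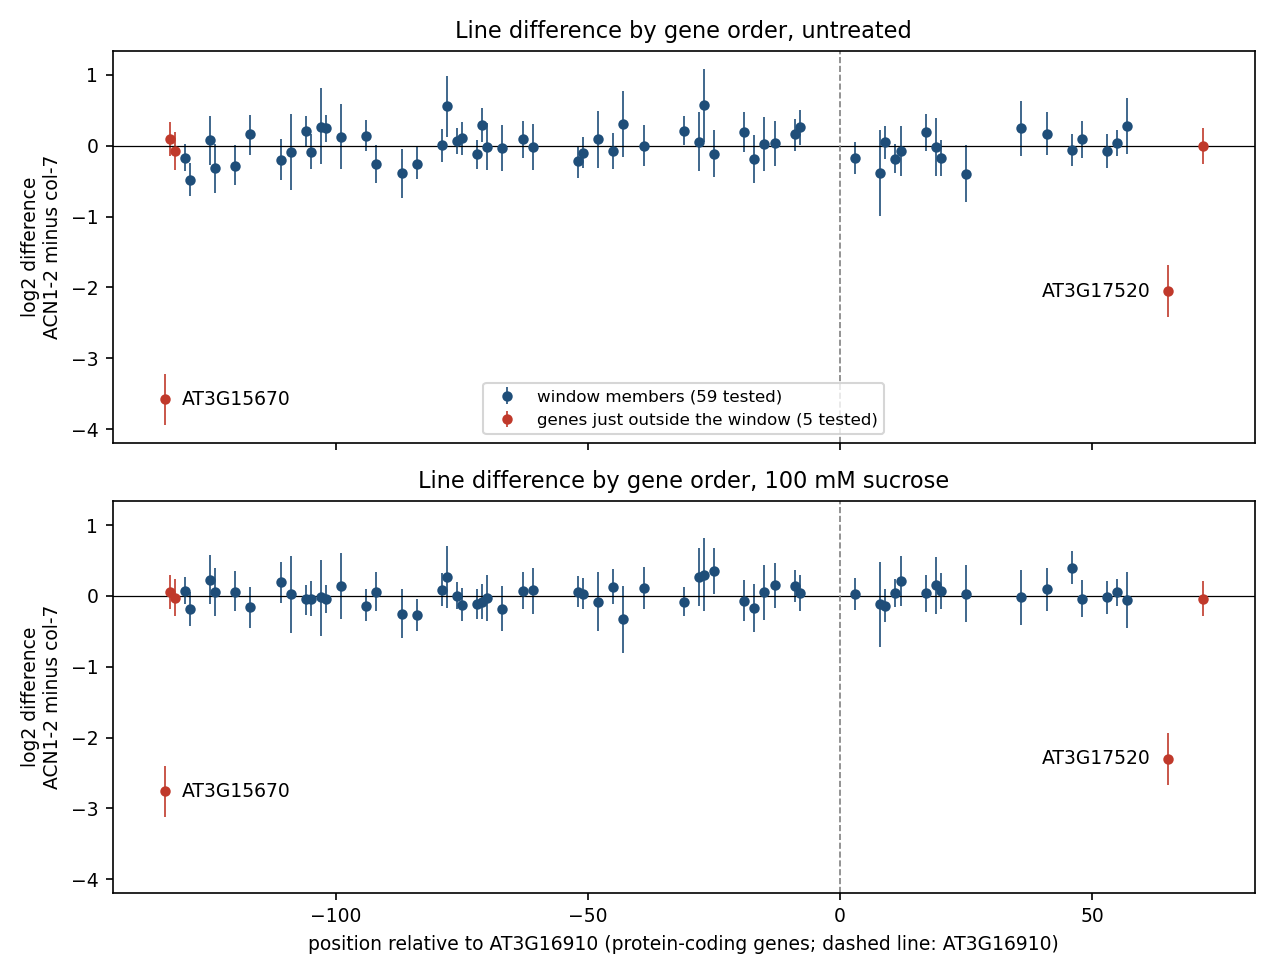
Log2 difference in intensity, ACN1-2 minus col-7, of each tested neighbour (blue, 59 genes) and of the 5 tested genes just outside the window (red), against position in protein-coding genes from AT3G16910 (dashed line), untreated in the upper and with 100 mM sucrose in the lower panel. Bars are 95% intervals of the difference from limma. The neighbours lie between -0.48 and 0.57, while AT3G15670 and AT3G17520, outside the window, lie at -2.05 or lower in both panels.

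The neighbours closest to the insertion were measured at low to moderate intensity. On the left the nearest measured gene was AT3G16880, an F-box family gene 4 genes away, which was not tested because it read at most 15.6 in any ACN1-2 array and 14.7 in any col-7 array. Next came AT3G16850, a pectin lyase-like family gene 8 genes away that belongs to a family acting on cell wall pectin. It had 219.9, 241.2 and 234.7 in untreated ACN1-2, against 188.2, 191.3 and 202.4 in untreated col-7. The 3 ACN1-2 arrays lay above the 3 col-7 arrays, but the difference of 0.26 (SE 0.12) did not pass (limma adjusted p 0.338). With sucrose AT3G16850 had 127.0, 132.8 and 128.1 in ACN1-2, against 137.2, 140.4 and 103.1 in col-7, and these overlapped. AT3G16840, a DEAD-box RNA helicase gene 9 genes away, differed by 0.16 (SE 0.11) without and 0.14 (SE 0.11) with sucrose.

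On the right the nearest measured gene was AT3G16930, 2 genes away, which read 0.4 to 1.6 on every array and was not tested. AT3G16940, a CAMTA-type calmodulin-binding transcription activator 3 genes away, had 60.7, 50.5 and 51.9 in untreated ACN1-2, against 58.4, 61.7 and 63.4 in untreated col-7. With sucrose it had 46.5, 40.0 and 47.8 in ACN1-2, against 45.3, 43.8 and 42.8 in col-7. The lines overlapped in each medium, and the differences were -0.17 (SE 0.10) without and 0.02 (SE 0.10) with sucrose. AT3G16960, 5 genes away, read 2.5 to 11.9 and was not tested.

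The largest line differences without sucrose were in AT3G16670 and AT3G16200, higher in ACN1-2, and in AT3G15720, lower in ACN1-2. None (0) of these was a call. AT3G16670, of the pollen Ole e 1 allergen and extensin family of secreted proteins, had 138.5, 140.8 and 133.2 in untreated ACN1-2, against 107.7, 116.6 and 62.8 in untreated col-7. All 3 ACN1-2 arrays lay above all 3 col-7 arrays, and col-7 replicate 3 was the lowest by a wide margin. The difference was 0.57 (SE 0.24, limma adjusted p 0.303), and it ranged from 0.29 to 0.74 when 1 array was left out. AT3G16200 had 83.0, 77.6 and 134.9 in ACN1-2, against 73.7, 57.8 and 64.0 in col-7. The groups did not overlap here either, and the ACN1-2 mean was raised by replicate 3, the array that stood apart. Its difference of 0.56 (SE 0.20, limma adjusted p 0.245) ranged from 0.31 to 0.71 with 1 array left out.

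AT3G15720, a pectin lyase-like family gene at the left edge of the window, 129 genes from AT3G16910, had the steadiest of these differences. It had 29.9, 32.3 and 29.6 in untreated ACN1-2, against 43.6, 39.1 and 45.1 in untreated col-7. The groups were clearly apart, with each group spread over less than the gap between the means, and the difference of -0.48 (SE 0.11, 95% interval -0.71 to -0.24) had a limma adjusted p of 0.0873. With sucrose it had 26.2, 32.3 and 31.9 in ACN1-2, against 33.6, 36.9 and 32.4 in col-7. These groups were separated only narrowly, and the difference was -0.19 (SE 0.11). AT3G16120, a dynein light chain family gene, had 27.1, 37.6 and 27.5 in untreated ACN1-2, against 39.6, 40.0 and 39.6 in untreated col-7. The 3 ACN1-2 arrays lay below all col-7 arrays, with a difference of -0.39 (SE 0.16, limma adjusted p 0.303).

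AT3G17160 differed by -0.40 (SE 0.19, limma adjusted p 0.351) without sucrose, with overlapping groups. AT3G16990, of the TENA and THI-4 family, 8 genes to the right of AT3G16910, had 31.8, 36.7 and 4.5 in untreated ACN1-2, against 27.2, 44.8 and 30.7 in untreated col-7. A single array, ACN1-2 replicate 3, set its difference of -0.38 (SE 0.28), which was 0.03 without that array. In all, 14 of the 59 neighbours had groups that did not overlap without sucrose, 8 higher and 6 lower in ACN1-2, beside 17.9% of all tested probe sets.

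With sucrose the largest line difference was in AT3G17350, 46 genes to the right of AT3G16910. It had 91.8, 88.5 and 85.2 in ACN1-2, against 68.2, 64.3 and 68.3 in col-7. The groups were well separated, and the difference was 0.40 (SE 0.11, 95% interval 0.17 to 0.63, limma adjusted p 0.363). With arrays weighted by quality it was 0.42 and was called (limma adjusted p 0.0156). The weights raised the calls over all tested probe sets from 29 to 164. Without sucrose the same gene had 59.7, 50.8 and 66.7 in ACN1-2, against 63.0, 62.9 and 58.2 in col-7. These overlapped, with a difference of -0.06 (SE 0.11).

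SWEET16 (AT3G16690), a sugar transporter of the vacuole membrane, had 81.1, 83.2 and 69.6 in ACN1-2 with sucrose, against 66.9, 54.8 and 62.4 in col-7 with sucrose. All ACN1-2 arrays were higher, the nearest pair by little, and the difference of 0.35 (SE 0.15) did not pass. AT3G16530, a legume lectin family gene, had 63.6, 53.6 and 58.9 in ACN1-2, against 98.6, 87.0 and 46.4 in col-7. The groups overlapped through col-7 replicate 3, the array that stood apart. Its difference was -0.33 (SE 0.22), and -0.66 (limma adjusted p 0.0301, a call) without both arrays that stood apart. Leaving both out raised the calls over all tested probe sets from 29 to 63. ASPGB1 (AT3G16150), an asparaginase that releases ammonium from asparagine, differed by -0.27 (SE 0.10) with and -0.25 (SE 0.10) without sucrose, and neither difference passed. AT3G16670 and AT3G16200, described above, differed by 0.30 (SE 0.24) and 0.26 (SE 0.20) with sucrose and did not pass. The neighbours with groups that did not overlap in sucrose numbered 11 of 59, 5 higher and 6 lower in ACN1-2, beside 14.2% of all tested probe sets. The 5 include AT3G16220, which read under the floor on every sucrose array and had a fitted difference of 0.00.

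**Figure D2:**
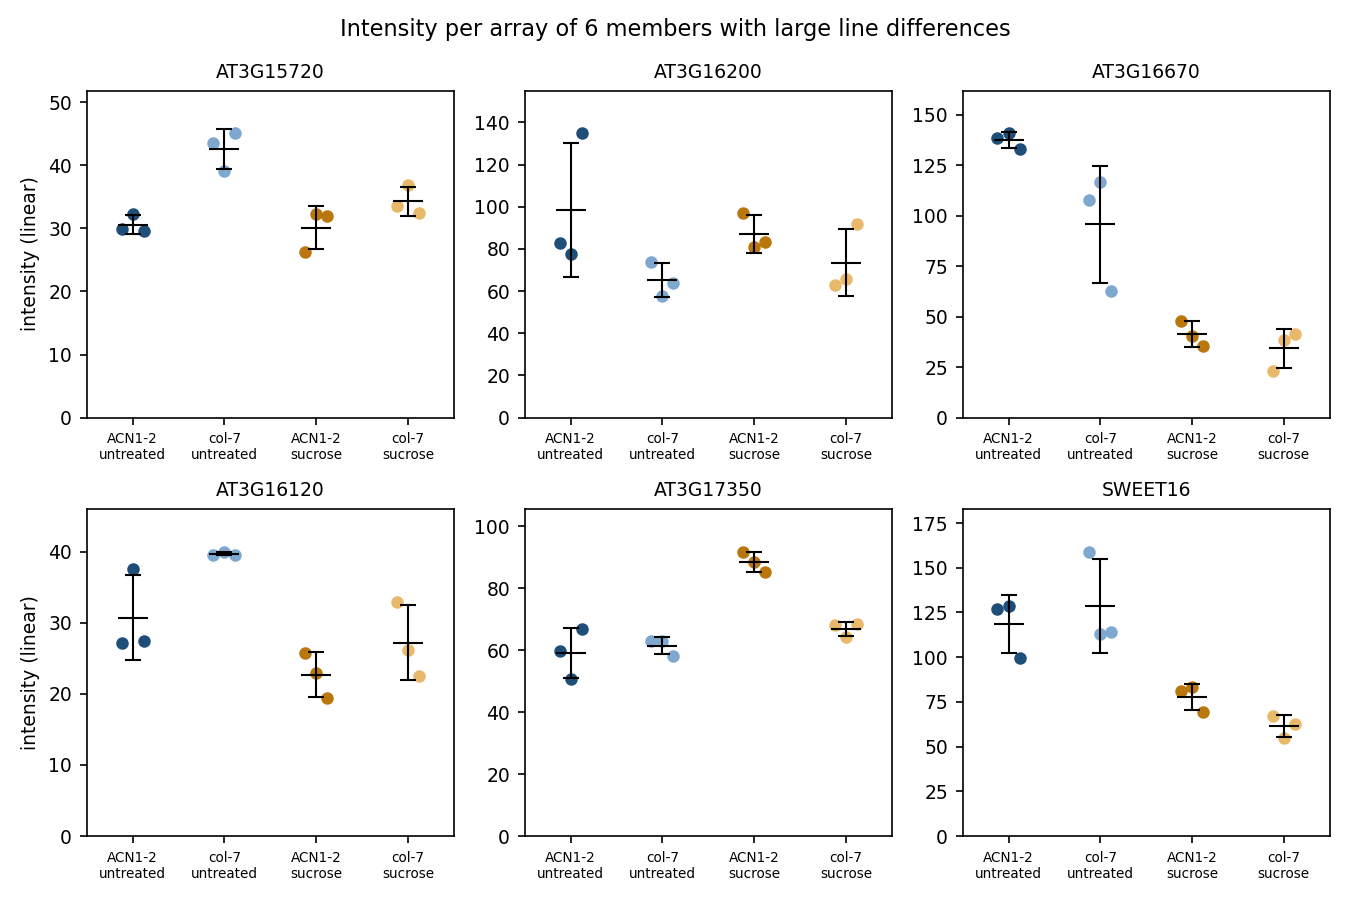
Intensity on a linear scale, from 0, of the 6 neighbours AT3G15720, AT3G16200, AT3G16670, AT3G16120, AT3G17350 and SWEET16 on each array of ACN1-2 and col-7, untreated and with 100 mM sucrose. Points are arrays and black marks are the mean ± SD of 3 arrays. AT3G17350 is higher in ACN1-2 in sucrose only, while AT3G15720 is separated most without sucrose, and no difference between the lines drawn here passed the adjusted test.

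The line differences of the same gene in the 2 media showed little likeness. Over the 59 neighbours Pearson's r between the difference without and with sucrose was 0.138, beside 0.126 over all tested probe sets, and 25 of 59 had the same sign (42.4%, beside 47.2%). The 2 contrasts share no array. These are descriptions across genes, which are not independent replicates.

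Just outside the window, 2 late embryogenesis abundant (LEA) family genes had line differences larger than any inside it. LEA proteins accumulate in maturing seeds and in dry tissue. AT3G15670, 134 genes to the left of AT3G16910, read 14.4, 3.6 and 3.0 in untreated ACN1-2, against 138.1, 180.3 and 205.7 in untreated col-7. All 3 ACN1-2 arrays were at or under the floor, so the gene was at least 12.0-fold lower in ACN1-2 (limma adjusted p 2.38e-07). With sucrose it had 57.7, 50.7 and 55.0 in ACN1-2, against 333.8, 312.0 and 478.6 in col-7. The groups lay far apart, with a difference of -2.76 (SE 0.17, limma adjusted p 5.51e-06).

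AT3G17520, 65 genes to the right, read 6.4, 6.6 and 0.8 in untreated ACN1-2, against 50.0, 53.8 and 79.3 in untreated col-7, which made it at least 4.15-fold lower in ACN1-2 (limma adjusted p 4.2e-05). With sucrose it had 28.3, 31.2 and 23.1 in ACN1-2, against 119.0, 128.0 and 158.9 in col-7. The groups were again far apart, with a difference of -2.30 (SE 0.17, limma adjusted p 2.19e-05). With no floor the difference in sucrose had the same size, -2.30, and was no longer a call (adjusted p 0.275). Both genes are also among the 3 embryo or seed markers measured (of 5 listed), whose summed intensity was 32.4 to 42.8 in untreated ACN1-2 and 223 to 322 in untreated col-7. In sucrose that sum was 103 to 115 in ACN1-2 and 476 to 684 in col-7. The gap in the sum is largely that of these 2 genes. PAP85, a seed storage protein family gene and the remaining marker measured, read 22.0 to 28.6 in untreated ACN1-2, against 31.3 to 36.8 in untreated col-7. With sucrose PAP85 read 21.1 to 29.0 in ACN1-2, against 29.9 to 46.7 in col-7, a smaller gap in both media. The part of seed-type transcripts in these 2 differences was not tested.

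The tested genes nearest to these 2 showed no such difference. On the left, AT3G15680 differed by 0.10 and 0.06 and AT3G15690 by -0.07 and -0.03, without and with sucrose. Just inside the left edge AT3G15710 differed by -0.17 and 0.07, AT3G15720 is described above, and AT3G15740 was too dim to test. On the right, no gene directly beside AT3G17520, which lies 65 genes from AT3G16910, was tested. The next tested gene outside was BSH (AT3G17590), 72 genes from AT3G16910, at 0.00 and -0.04, and IAA31 was too dim to test. Just inside the right edge AT3G17430, a nucleotide-sugar transporter-like gene, differed by 0.04 and 0.05. AT3G17450, 57 genes from AT3G16910, differed by 0.28 and -0.06, while AT3G17490 was too dim to test. In flanks of the same width in locus numbers, AT3G15670 was the only call of 67 tested on the left in each medium, and AT3G17520 was the only call of 51 tested on the right. On the rest of chromosome 3 the calls were 10 of 1310 (0.763%) without and 4 of 1310 (0.305%) with sucrose.

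Sucrose changed many of the neighbours, in both directions and to a similar degree in both lines. In ACN1-2, 32 of the 59 were called between sucrose and untreated arrays, 16 higher and 16 lower with sucrose, beside 56.9% of all tested probe sets (27.4% higher and 29.6% lower). In col-7, 32 of the 59 were called, 15 higher and 17 lower, beside 50.2% (25.9% higher and 24.3% lower). Both shares lie near those of the whole array. The median sucrose minus untreated difference was 0.03 in ACN1-2 and 0.04 in col-7, beside -0.04 and 0.00 over all tested probe sets. Changes of at least 2-fold were mostly falls, 6 against 1 rise in ACN1-2 (whole array 7.21% and 5.7%) and 7 against 1 in col-7 (6.32% and 4.08%).

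Some measures of the samples moved with sucrose. The 3' to 5' intensity ratio of the actin control probe sets was 5.32 to 6.38 in ACN1-2 with sucrose and 1.81 to 2.91 in ACN1-2 untreated, and it was 5.96 to 6.93 in col-7 with sucrose and 2.3 to 3.42 in col-7 untreated. For GAPDH the ratio was 0.824 to 0.92 in ACN1-2 with sucrose and 0.958 to 1.45 in ACN1-2 untreated, and 0.819 to 0.886 in col-7 with sucrose and 1.1 to 1.23 in col-7 untreated. The summed intensity of the 2 measured green tissue markers was 2900 to 3030 in ACN1-2 with sucrose, against 4500 to 7850 untreated, and 2370 to 3430 in col-7 with sucrose, against 5550 to 6270 untreated. The sum of the 2 root markers was 450 to 492 in ACN1-2 with sucrose, against 277 to 306 untreated, and 418 to 680 in col-7 with sucrose, against 295 to 312 untreated. No measured marker was at 0 in any array. The part of RNA quality and of tissue make-up in the sucrose responses was not tested.

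The strongest fall belonged to AT3G16220, a gene of the LigT-like family, 76 genes to the left of AT3G16910. In ACN1-2 it had 6.2, 6.7 and 10.6 with sucrose, against 127.8, 125.4 and 113.2 untreated. In col-7 it had 2.5, 5.1 and 3.9 with sucrose, against 122.0, 112.9 and 114.9 untreated. Every sucrose array lay under the floor and every untreated array far above it, so the gene was at least 8.47-fold lower with sucrose in ACN1-2 (limma adjusted p 9.04e-11) and at least 8.09-fold lower in col-7 (1.77e-10). Its neighbour and family member AT3G16230 behaved differently, at 84.1, 81.9 and 82.7 with sucrose against 73.1, 87.3 and 66.3 untreated in ACN1-2. In col-7 AT3G16230 had 94.7, 91.4 and 85.5 with sucrose, against 71.1, 72.6 and 65.4 untreated. The sucrose arrays overlapped the untreated ones in ACN1-2 and lay above them in col-7. AT3G16230 rose in col-7 (0.38, SE 0.11, limma adjusted p 0.0111), and the difference of 0.14 in ACN1-2 did not pass.

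The chloroplast gene PIFI (AT3G15840) also fell. PIFI is named for the rise in chlorophyll fluorescence that follows illumination and acts in chlororespiration. It had 146.9, 165.3 and 169.1 with sucrose in ACN1-2, against 588.4, 573.3 and 629.7 untreated. The col-7 arrays read 198.2, 192.2 and 150.7 with sucrose, against 584.0, 577.1 and 452.6 untreated. The groups were far apart in each line, and the falls were -1.90 (SE 0.13, limma adjusted p 1.88e-07) in ACN1-2 and -1.58 (SE 0.13, limma adjusted p 1.3e-06) in col-7. Of a list of 10 chloroplast and plastid lipid genes of the window, only PIFI had a probe set assigned to exactly 1 gene.

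AT3G15760 and AT3G15770, which lie next to each other, fell together. AT3G15760 had 27.1, 19.3 and 29.8 with sucrose in ACN1-2, against 102.3, 105.7 and 101.6 untreated. In col-7 it had 25, 21.4 and 18.2 with sucrose, against 92.9, 110.2 and 91.2 untreated. Sucrose arrays were low in both lines without overlap, and the falls were -2.05 (SE 0.16, limma adjusted p 4.89e-07) in ACN1-2 and -2.19 (SE 0.16, limma adjusted p 4.16e-07) in col-7. AT3G15770 had 15.6, 20.0 and 17.8 with sucrose in ACN1-2, against 65.5, 58.9 and 43.8 untreated. In col-7 it had 17.8, 19.2 and 11.9 with sucrose, against 62.9, 68.9 and 74.7 untreated. The sucrose arrays were close to the floor, and the falls were -1.64 (SE 0.16) in ACN1-2 and -2.01 (SE 0.16) in col-7.

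AT3G16530, the lectin family gene, fell by 1.91 (SE 0.22, limma adjusted p 1.11e-05) in ACN1-2 and by 1.27 (SE 0.22, limma adjusted p 0.000344) in col-7. Its intensities with sucrose are given above, and untreated it had 213.0, 199.8 and 250.9 in ACN1-2 and 171.9, 191.4 and 170.6 in col-7. All sucrose arrays lay under all untreated arrays of their line. AT3G16670, of the Ole e 1 family, had 48.0, 40.5 and 35.4 with sucrose in ACN1-2, against the untreated values given above, and 23.3, 38.5 and 41.3 with sucrose in col-7. It fell by 1.75 (SE 0.24, limma adjusted p 4.99e-05) in ACN1-2 and by 1.47 (SE 0.24, limma adjusted p 0.000237) in col-7. AT3G16660, the adjacent gene of the same family, fell less, by 0.56 (SE 0.19) in ACN1-2 and by 0.76 (SE 0.19) in col-7.

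**Figure D3:**
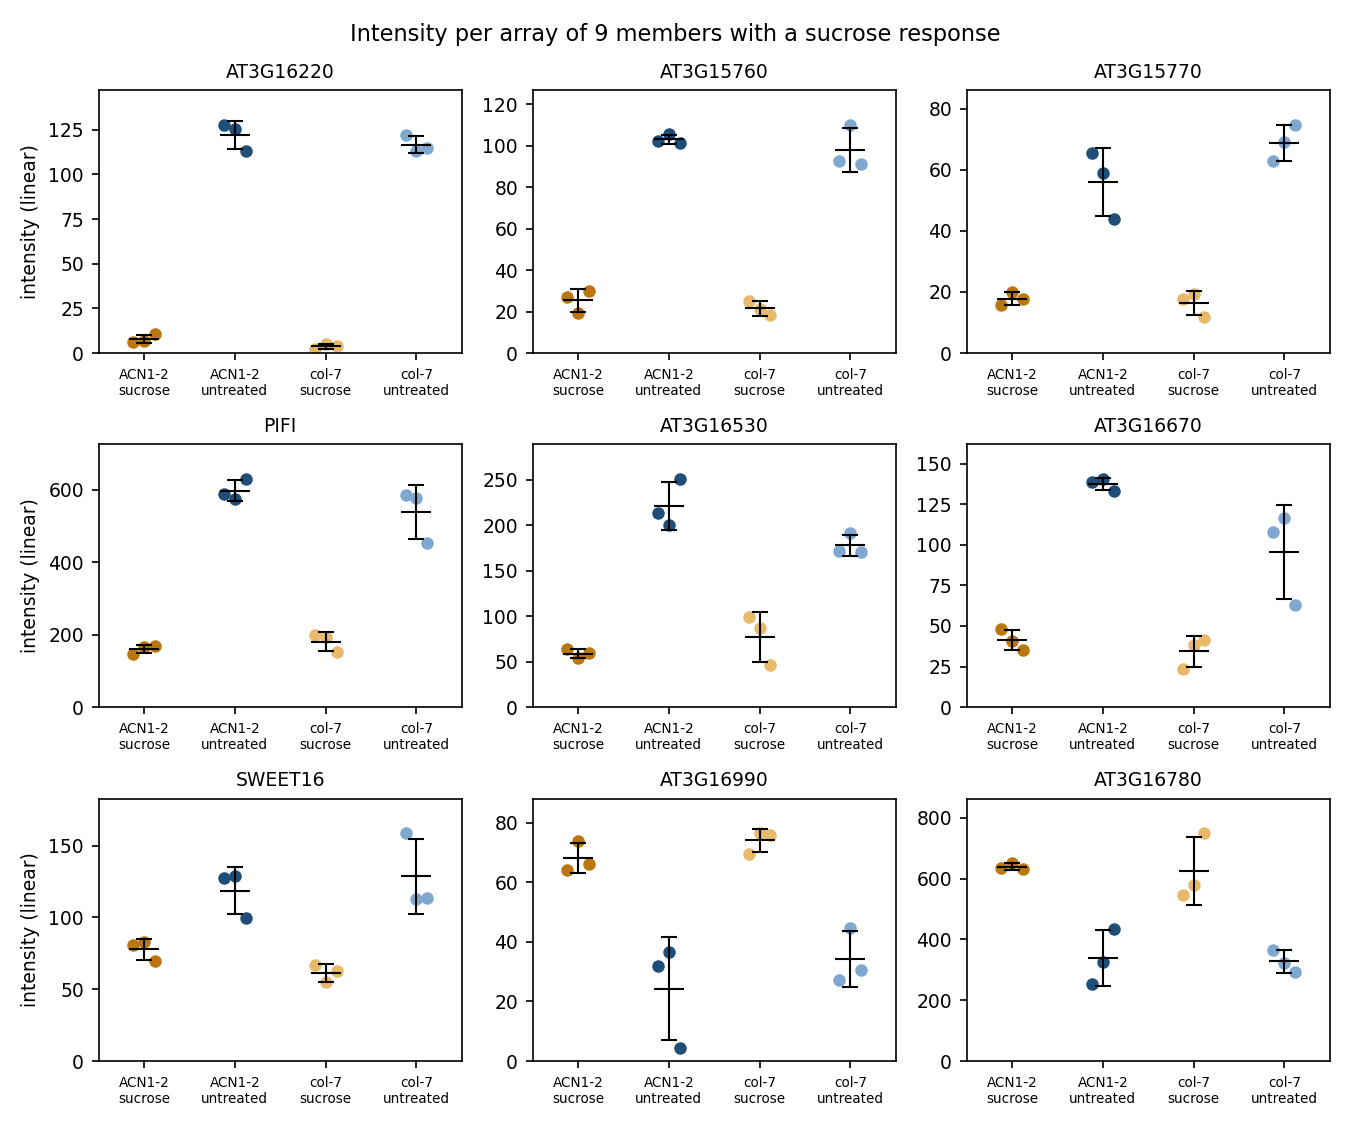
Intensity on a linear scale, from 0, of 9 neighbours with a called sucrose response, on each array of ACN1-2 with sucrose, ACN1-2 untreated, col-7 with sucrose and col-7 untreated. Points are arrays and black marks are the mean ± SD of 3 arrays. AT3G16220 reads at most 10.6 with sucrose and at least 112.9 untreated, and AT3G16990 and AT3G16780 run the other way, higher with sucrose in both lines.

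SWEET16, the only measured member of 5 listed membrane transport genes, fell in both lines. It had 81.1, 83.2 and 69.6 with sucrose in ACN1-2, against 127.2, 128.9 and 99.7 untreated. For col-7 the values were 66.9, 54.8 and 62.4 with sucrose, against 159.0, 112.9 and 113.9 untreated. The groups did not overlap, and the falls were -0.60 (SE 0.15, limma adjusted p 0.00477) in ACN1-2 and -1.05 (SE 0.15, limma adjusted p 9.85e-05) in col-7. The difference between the lines in this response was 0.45 (SE 0.22) and did not pass (limma adjusted p 0.502).

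Of 8 listed cell wall genes, 4 were measured and 3 tested. The calls were 2 of 3 lower in ACN1-2 and 3 of 3 lower in col-7, beside 29.6% and 24.3% called lower over all tested probe sets, and 2 of these 5 calls were lost in some alternatives. AT3G16850 fell by 0.84 (SE 0.12, limma adjusted p 5.53e-05) in ACN1-2 and by 0.63 (SE 0.12) in col-7, and its intensities with sucrose and untreated, given above, did not overlap in either line. AT3G16370, a GDSL-type lipase family gene, fell by 0.47 (SE 0.15) in ACN1-2 and by 0.56 (SE 0.15) in col-7. AT3G15720 fell by 0.31 (SE 0.11, limma adjusted p 0.0299) in col-7 and differed by -0.03 in ACN1-2. Its interaction, the ACN1-2 response less the col-7 response, was 0.28 (SE 0.15) and did not pass (limma adjusted p 0.543).

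Among ribosome and translation genes, 2 of 6 listed were tested and 1 rose in each line. Over all tested probe sets 27.4% were called higher in ACN1-2 and 25.9% in col-7, and 2 genes are too few to set against these shares. AT3G16780, of the ribosomal protein L19e family, had 633.1, 651.5 and 631.2 with sucrose in ACN1-2, against 253.1, 327.1 and 435.3 untreated. The col-7 values were 545.0, 578.6 and 750.6 with sucrose, against 366.1, 322.5 and 293.6 untreated. All sucrose arrays exceeded all untreated arrays, with rises of 0.95 (SE 0.18, limma adjusted p 0.00054) in ACN1-2 and 0.92 (SE 0.18, limma adjusted p 0.000802) in col-7. The helicase gene AT3G16840 differed by 0.06 and 0.08 and did not pass. AT3G16080, a zinc-binding ribosomal protein family gene outside that list, was named for the size of its rise. It had 1447.2, 1478.9 and 1501.6 with sucrose in ACN1-2, against 889.6, 821.0 and 663.4 untreated. In col-7 it had 1395.0, 1276.1 and 1619.0 with sucrose, against 926.2, 1029.6 and 874.6 untreated. The groups did not overlap in either line, and the rises were 0.91 (SE 0.13, limma adjusted p 5.6e-05) in ACN1-2 and 0.60 (SE 0.13, limma adjusted p 0.00167) in col-7.

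The largest rise was that of AT3G16990. It had 64.1, 73.8 and 66.2 with sucrose in ACN1-2 and 69.5, 76.6 and 75.9 with sucrose in col-7, all above the untreated arrays of their line given earlier. The rise was 1.41 (SE 0.28, limma adjusted p 0.000868) in ACN1-2 and 1.14 (SE 0.28, limma adjusted p 0.00417) in col-7. Without ACN1-2 untreated replicate 3, which read 4.5, the ACN1-2 rise was 0.99 and still a call. NAI2 (AT3G15950), needed to form the endoplasmic reticulum bodies of seedlings, rose by 0.54 (SE 0.11, limma adjusted p 0.00137) in ACN1-2 and by 0.49 (SE 0.11, limma adjusted p 0.00314) in col-7. It had 1286.3, 1337.8 and 1330.0 with sucrose in ACN1-2, against 889.9, 839.3 and 994.9 untreated. Intensities in col-7 were 1378.2, 1296.6 and 1378.1 with sucrose, against 881.0, 884.3 and 1140.7 untreated. Sucrose arrays were higher without overlap in each line.

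The other genes that rose in both lines were AT3G17160 (0.93 in ACN1-2 and 0.50 in col-7), AT3G16760 (0.72 and 0.70), AT3G17120 (0.64 and 0.47), AT3G15710 (0.61 and 0.37) and EMB2786 (0.57 and 0.65). They also included AT3G17020 of the universal stress protein family (0.53 and 0.31), the kinesin family gene AT3G16060 (0.27 and 0.55) and TRZ4, which encodes a tRNase Z that trims tRNA precursors (0.26 and 0.26). Smaller falls in both lines were those of UBC32, a ubiquitin-conjugating enzyme of endoplasmic reticulum quality control (-0.55 in ACN1-2 and -0.37 in col-7), AT3G16120 (-0.43 and -0.57), the protein kinase gene AT3G17410 (-0.37 and -0.42) and AT3G16940 (-0.28 and -0.48). Altogether 12 of 59 neighbours rose in both lines (20.3%, beside 21.3% of all tested probe sets) and 14 fell in both (23.7%, beside 20.8%). In neither line were 21 called (35.6%, beside 34.9%), and 0 were called in opposite directions, beside 4 of the 13764 tested probe sets.

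The remaining lists held 1 to 4 tested genes each, too few to set against the shares over all tested probe sets. Those shares were 56.9% called in ACN1-2 and 50.2% in col-7. Of the jacalin-related lectin and nitrile-specifier cluster, 2 of 9 listed genes were measured, both jacalin-related lectins at high intensity. JAL33 had 1523.1, 1496.8 and 1601.5 with sucrose in ACN1-2, against 1286.3, 1148.3 and 1258.4 untreated, and it rose by 0.32 (SE 0.10, limma adjusted p 0.0161). In col-7 JAL33 differed by 0.04 and JAL34 by 0.05, and neither passed. Of 14 listed transcription and hormone genes, 3 were tested, AT3G16940 fell in both lines, and the ERF family gene AT3G16280 (0.03 and 0.05) and the MYB-related gene AT3G16350 (-0.28 and -0.25) did not pass. Of 16 ubiquitin and F-box genes, 2 of 7 measured were bright enough to test, and UBC32 fell in both lines while the F-box gene AT3G16740 differed by -0.05 and 0.21. The central carbon list of 6 had ASPGB1 as its only measured member, which differed by -0.17 and -0.15 with sucrose and did not pass.

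Protein phosphatases of type 2C made up the 4 tested genes of the phosphatase and kinase list (8 listed). With sucrose AT3G16560 rose in ACN1-2 (0.40, SE 0.14, limma adjusted p 0.0249) and AT3G16800 fell in col-7 (-0.39, SE 0.15, limma adjusted p 0.0414). Neither passed in the other line, where AT3G16560 differed by 0.28 and AT3G16800 by -0.28. AT3G17090 (0.04 and 0.19) and AT3G17250 (-0.23 and 0.04) did not pass in either line.

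A call in 1 line alone does not by itself show a difference between the lines. Besides AT3G16560, the genes called in ACN1-2 and not in col-7 were AT3G17350 (0.59 in ACN1-2 and 0.13 in col-7), JAL33, AT3G16190 (0.30 and 0.23), AT3G16270 of the ENTH and VHS domain family (-0.50 and -0.13) and AT3G17450 (-0.79 and -0.45). Those called in col-7 and not in ACN1-2 were, besides AT3G16230, AT3G16800 and AT3G15720, the glycosyltransferase gene UGT88A1 (-0.24 in ACN1-2 and -0.44 in col-7), the coatomer subunit gene AT3G15980 (0.02 and 0.32) and AT3G15940 (0.05 and 0.31). The interaction called 0 of 59 neighbours, beside 0.0581% of all tested probe sets, and 4 had an unadjusted p under 0.05 (10.0% over all). The smallest adjusted p was 0.348, for AT3G17350, whose interaction was 0.47 (SE 0.15, 95% interval 0.14 to 0.79). Pearson's r between the sucrose responses of the lines, which share no array, was 0.951 over the 59 neighbours and 0.925 over all tested probe sets, and 51 of 59 had the same sign (86.4%, beside 85.3%).

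**Figure D4:**
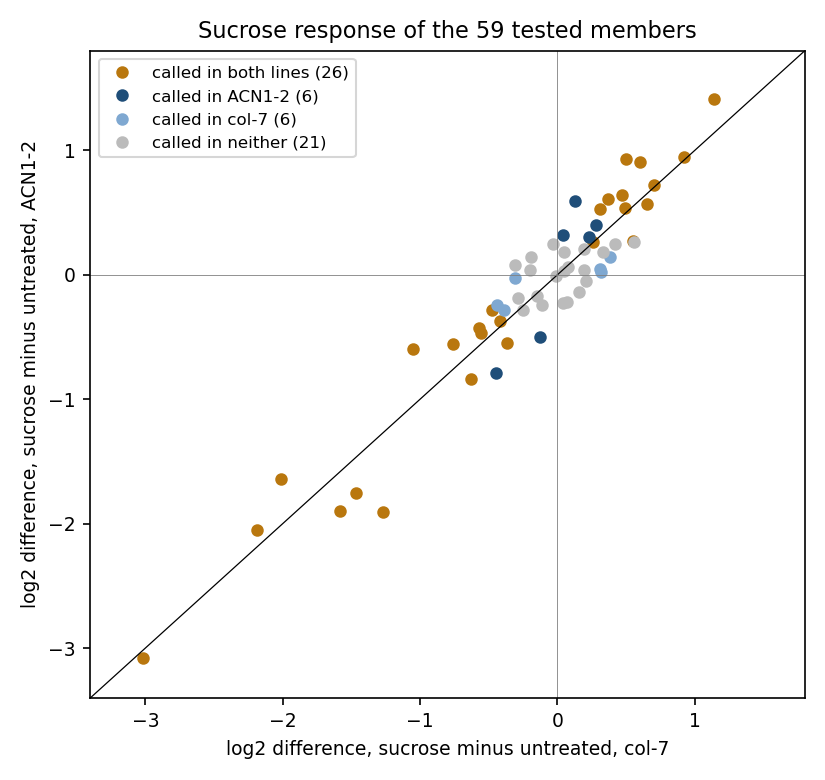
Sucrose minus untreated log2 difference of the 59 tested neighbours, in ACN1-2 on the vertical axis and in col-7 on the horizontal axis, coloured by the line or lines in which the response was called. The diagonal marks equal responses. The 26 genes called in both lines lie at the upper right and lower left, and 6 genes are called in each line alone.

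The sucrose response had no evident order along the chromosome. Spearman's rho between the absolute response and the distance from AT3G16910 was -0.155 in ACN1-2 and 0.0161 in col-7 over 59 genes, and for the interaction it was 0.102. Within 20 genes of AT3G16910, 8 of 14 neighbours were called in ACN1-2 (5 higher and 3 lower) and 9 of 14 in col-7 (5 higher and 4 lower). On the left 22 of 43 were called in ACN1-2 and 24 of 43 in col-7, and on the right 10 of 16 and 8 of 16. The shares over all tested probe sets were 56.9% in ACN1-2 and 50.2% in col-7. Of the 6 genes that fell at least 2-fold in both lines, all lay on the left, between AT3G15760 and AT3G16670, as did 43 of the 59 tested neighbours. AT3G16990, the only 2-fold rise in each line, lay on the right.

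There were 14 pairs of adjacent genes with both genes tested. In ACN1-2, 7 of 14 pairs had the same sign of response (50.0%, beside 50.8% of 2094 adjacent pairs over the whole array). In col-7 it was 6 of 14 (42.9%, beside 54.0%). Both genes were called in 4 pairs in ACN1-2 and 6 in col-7, of which 2 and 3 had the same sign. Over the whole array both were called in 681 of 2094 pairs in ACN1-2 and 503 of 2094 in col-7. Of those, 55.9% and 56.3% had the same sign. AT3G15760 with AT3G15770 and AT3G16660 with AT3G16670 fell together in both lines. AT3G16990 with UBC32 moved in opposite directions in both lines, the first rising and the other falling.

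**Figure D5:**
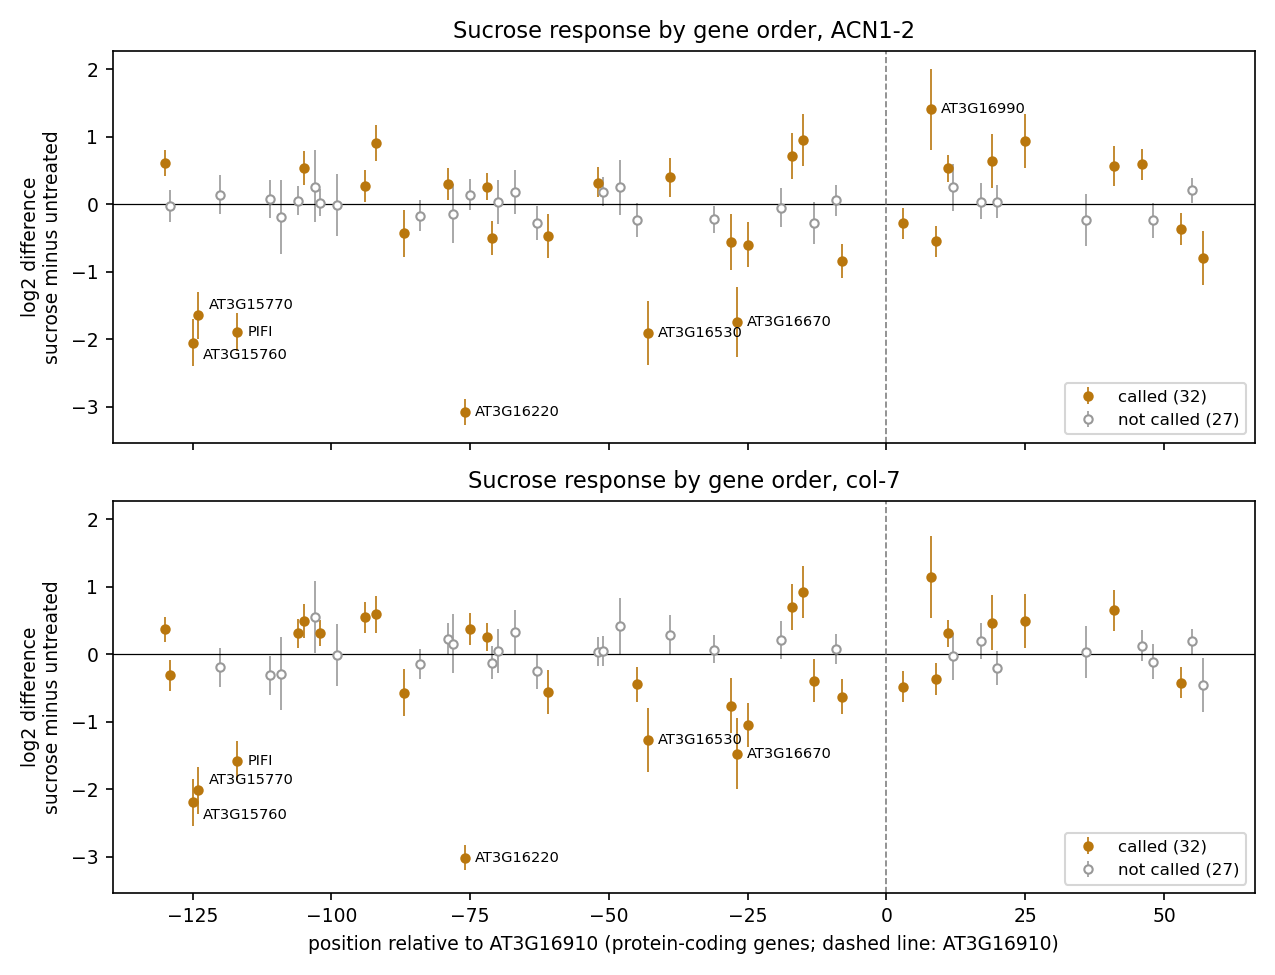
Sucrose minus untreated log2 difference of each tested neighbour against position in protein-coding genes from AT3G16910 (dashed line), ACN1-2 in the upper and col-7 in the lower panel. Filled points are calls (32 in each line), open points are not, and bars are 95% intervals from limma. The 6 falls of 2-fold or more that both lines share lie left of the dashed line, as do 43 of the 59 tested neighbours. Rises and falls are found on both sides.

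Of the 38 dim neighbours, 0 were called in either line comparison or in the interaction when the filter on low intensity was dropped. By sucrose in col-7, AT3G15800 (-1.27, limma adjusted p 0.0209) and AT3G16175 (-0.92, limma adjusted p 0.00576) were called without that filter, and 0 were called in ACN1-2. AT3G15800 had 16.2, 12.1 and 15.9 with sucrose in col-7, against 50.1, 36.3 and 28.7 untreated. AT3G16175 had 18.3, 22.1 and 16.5 with sucrose in col-7, against 29.7, 46.0 and 33.0 untreated. Sucrose arrays were lower without overlap for both genes, at intensities near the floor.

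Of the 32 sucrose calls in each line, 23 in ACN1-2 and 24 in col-7 held in every alternative tried, and 0 turned sign. The 9 others in ACN1-2 and 8 in col-7 were lost in some alternative, most at a similar size. As many neighbours that were not called (9 in ACN1-2 and 8 in col-7) became calls in some alternative. With all arrays, the limma adjusted p of the lost calls ran from 0.0161 (JAL33) to 0.0456 (AT3G16060) in ACN1-2. In col-7 it ran from 0.00417 (AT3G16990) to 0.0498 (AT3G17120), so not all lay close to the threshold. The differences and limma adjusted p-values below are those of the fits in which a call was lost.

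In ACN1-2, AT3G16060 was lost (0.20 to 0.31, adjusted p 0.0531 to 0.157) when the array left out was any 1 of ACN1-2 with sucrose, replicate 1 or 3 of untreated ACN1-2, replicate 1 or 2 of col-7 with sucrose, or replicate 2 of untreated col-7. AT3G16190 was lost (0.23 to 0.31, 0.064 to 0.135) without replicate 1 or 2 of untreated ACN1-2 or replicate 2 or 3 of ACN1-2 with sucrose. AT3G16660 was lost (-0.55 to -0.42, 0.0548 to 0.0968) without replicate 1 or 2 of either ACN1-2 group. Without replicate 1 of untreated ACN1-2 or replicate 1 or 2 of ACN1-2 with sucrose, AT3G16560 (0.27 to 0.39, 0.0604 to 0.111) and AT3G16940 (-0.31 to -0.20, 0.0536 to 0.164) were lost. AT3G16370 was lost (-0.40 to -0.36, 0.0708 to 0.0768) without replicate 1 or 3 of untreated ACN1-2 or replicate 1 of ACN1-2 with sucrose. AT3G16120 was lost (-0.44 to -0.28, 0.0718 to 0.156) without replicate 2 of untreated ACN1-2 or replicate 2 or 3 of ACN1-2 with sucrose. TRZ4 was lost (0.21 to 0.27, 0.0649 to 0.126) without replicate 3 of untreated ACN1-2 or replicate 1 or 2 of ACN1-2 with sucrose. JAL33 was lost (0.28 to 0.30, 0.0524 to 0.0585) without replicate 2 of untreated ACN1-2 or replicate 3 of ACN1-2 with sucrose. Settings other than a left-out array also ended the calls of AT3G16120 (5 settings, adjusted p 0.0529 to 0.157), AT3G16940 (4, 0.0536 to 0.171), AT3G16370 (2, 0.0591 to 0.075) and TRZ4 (2, 0.0566 to 0.059). For AT3G16060 (0.0578), AT3G16190 (0.0557), AT3G16560 (0.0539) and AT3G16660 (0.0757) 1 such setting did.

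In col-7, AT3G17120, with an adjusted p of 0.0498, was lost (0.38 to 0.55, adjusted p 0.0551 to 0.16) without any 1 of 9 arrays, the exceptions being replicates 2 and 3 of untreated ACN1-2 and replicate 3 of col-7 with sucrose. AT3G16800 was lost (-0.41 to -0.23, 0.0544 to 0.193) without replicate 1 or 2 of untreated col-7, any 1 array of col-7 with sucrose or replicate 2 of ACN1-2 with sucrose. TRZ4 was lost (0.23 to 0.26, 0.0554 to 0.113) without replicate 1 or 3 of untreated col-7, replicate 1 or 2 of col-7 with sucrose or replicate 2 of ACN1-2 with sucrose. AT3G15720 was lost (-0.30 to -0.27, 0.0774 to 0.0905) without replicate 1 or 3 of either col-7 group. AT3G17160 was lost (0.27 to 0.48, 0.09 to 0.182) without replicate 1 of untreated col-7 or replicate 2 or 3 of col-7 with sucrose. AT3G15940 was lost (0.23 to 0.31, 0.0503 to 0.0893) without replicate 2 of untreated col-7 or replicate 1 of col-7 with sucrose, and AT3G16120 (-0.44, 0.0526) without replicate 3 of col-7 with sucrose. Settings other than a left-out array also ended the calls of AT3G17120 (5 settings, adjusted p 0.0532 to 0.133), AT3G16800 (3, 0.066 to 0.0953), AT3G17160 (3, 0.056 to 0.109), AT3G15720 (3, 0.0756 to 0.0939) and TRZ4 (1, 0.0552). AT3G16990 kept its call without any 1 array and lost it when no floor was used, at the same rise of 1.14 (adjusted p 0.117).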

How the data were processed

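Each deposited value is a linear intensity of 1 probe set on 1 array, which the authors had scaled to a common trimmed mean, as the values show. The labels do not name the software. RNA of whole seedlings was labelled with biotin, per the labels. Of 22810 probe sets, 64 controls were left out, 13513 named 1 gene, 503 several and 8730 none. Gene order came from RefSeq's TAIR10.1 annotation and was used for names and order only.

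The members and lists were chosen with earlier results of these data known. The 25th percentile of all values (14.4) served as a floor, log2 was taken, and probe sets with a mean of at least 29.1 (the 40th percentile) were tested. No further normalization was added. All 4 groups were fitted in 1 model with limma 3.58.1 in R 4.3.3 (lmFit and eBayes, 8 residual degrees of freedom, prior 4.87, two-sided, Benjamini-Hochberg over 13764 probe sets). An at-least fold sets the brighter group's mean log2 value against the floor. Overlap of groups was judged on the deposited intensities, before the floor. With 3 arrays a group, their number limits the precision. Figures used matplotlib 3.10.9.

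Genes were named when called in a line comparison or the interaction, among the 6 largest line differences per medium or the 12 largest called rises and falls by sucrose in each line, among the 3 measured genes nearest AT3G16910 or either edge, or on a list by function. Other called or dim neighbours named were picked after their values were seen.

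Replicate numbers were checked for pairing. Deviations of same-numbered arrays correlated at -0.0953 to 0.139 over 18 pairs, and those of other-numbered arrays at -0.184 to 0.103 over 36. Correlations over 0.1 numbered 3 of 18 and 1 of 36. The ranges overlap, and the numbers were not taken as pairs. The alternatives were quantile normalization, no or a stricter filter (a mean of 62.3), no floor, a pseudocount of 16, a variance trend with robust moderation, the replicate block, only the groups compared, array weights, scanner background as a covariate, arrays left out and a narrower window.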

Additional observations from a re-analysis of the deposited data

Results flagged for a closer look

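The line difference of 2 neighbours ran in opposite directions in the 2 media, with every ACN1-2 array above every col-7 array without sucrose and below it with sucrose. The same separation in opposite directions, either way round, was found in 1.62% of all tested probe sets (223 of 13764), beside 3.39% of the neighbours (2 of 59). AT3G16270 had 117.6, 120.2 and 157.8 in untreated ACN1-2, against 113.3, 104.4 and 101.6 in untreated col-7, and 92.4, 93.9 and 91.0 in ACN1-2 with sucrose, against 94.2, 98.3 and 100.0 in col-7 with sucrose. Its interaction was -0.37 (SE 0.16), and the test of that difference did not pass (limma adjusted p 0.464). KINESIN-13A, a microtubule motor family gene, had 185.6, 190.7 and 195.6 in untreated ACN1-2, against 168.2, 146.7 and 180.6 in untreated col-7. With sucrose it had 168.3, 163.4 and 158.9 in ACN1-2, against 172.1, 172.4 and 175.1 in col-7. Its interaction was -0.30 (SE 0.13), which did not pass either (limma adjusted p 0.493).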

How the results depend on the processing

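The line comparison without sucrose and the interaction called 0 of 59 neighbours in every alternative run. The line comparison with sucrose called 1 with array weights (AT3G17350, higher in ACN1-2) and 1 without both arrays that stood apart (AT3G16530, lower in ACN1-2), and 0 in the others. Over all 13764 tested probe sets these settings called 164 and 63, beside 29 in the fit used here. By sucrose the counts were 26 to 34 in ACN1-2 and 27 to 36 in col-7 with 1 array left out, and 18 (10 higher, 8 lower) and 17 (7 higher, 10 lower) of 30 in the narrower window, which tests fewer genes. With 1 array left out, the median difference was -0.027 to 0.044 for the lines without sucrose, 0.0 to 0.037 with it, 0.008 to 0.057 for sucrose in ACN1-2, -0.109 (without col-7 untreated replicate 3) to 0.059 for sucrose in col-7 and 0.003 to 0.066 for the interaction. The col-7 sucrose median was 0.10 with the stricter filter, which tests fewer genes, and the interaction median 0.082 in the narrower window. The untreated line difference of AT3G16990 ranged from -0.64 to 0.03 with 1 array left out, the value 0.03 being that without replicate 3 of untreated ACN1-2, and it was 0.03 without both arrays that stood apart. With the replicate number as a block the counts were 0, 0, 32, 32 and 0, and the correlations did not show the numbers to pair arrays. No called difference changed sign in any alternative. Dim probe sets near the floor limit what can be seen: 38 neighbours were not tested, and 17 of the 59 tested had means under 62.3.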
